A study of Mus musculus with 8 samples.

Results

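The basement membrane collagens are the 6 chains of collagen IV, Col4a1 to Col4a6, and the multiplexins Col15a1 and Col18a1. They were taken by gene symbol from the table of read counts, which held all 8 among its 22274 genes. RNA was sequenced from primary murine cardiac fibroblasts, the matrix-producing cells of the heart, after transduction with a control vector or an IRF7 vector and treatment with TGF-β, a cytokine that turns fibroblasts into contractile myofibroblasts. There were 4 libraries labelled GFP, which had the control vector, and 4 labelled OEIRF7, for overexpression of IRF7, and every library had TGF-β at 5 ng/ml for 24 h. The study asked how raised IRF7, a transcription factor of the interferon response, alters such fibroblasts.

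In the study's methods both vectors were adenoviruses with a CMV promoter and an EGFP tag, and the insert was human IRF7. The design text of the series names an adeno-associated virus instead. No library without TGF-β or without virus was analysed here, and the strain, sex and age of the mice were not given for these cultures in the sources used here. Neither do the labels say whether the 4 libraries of a group came from separate cultures, so the p-values measure the spread between libraries, which may be technical.

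Total counts lay between 24888589 and 27095611 in the GFP libraries and between 24454801 and 28658826 in the OEIRF7 libraries. Mouse Irf7 itself was lower in the libraries labelled OEIRF7, at 15.2 ± 0.822 CPM (counts scaled to the total of the library; SD, n = 4) against 118 ± 24 CPM (SD, n = 4). Whether reads of a human insert would be counted as mouse Irf7 was not tested. Irf7 thus goes against the labels if the insert was the mouse gene, and need not check them if it was human. Groups are therefore named as the libraries are labelled, and every direction below holds for the labels only. Fibroblast transcripts were abundant but moved with the groups. The 8 listed fibroblast markers summed to between 11886 and 12389 CPM with GFP and between 10668 and 11160 CPM with OEIRF7, and 5 were lower, 1 higher and 2 not past the test. Of 7 cardiomyocyte markers 6 were too low to be tested, among them Myh6, and Tnnt2, cardiac troponin T, was lower, at 11.3 CPM with GFP and 7.78 CPM with OEIRF7.

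Basement membranes are thin sheets of matrix that lie under epithelia and endothelia and around muscle, nerve and fat cells. Collagen IV forms their network, with 3 chains wound into a trimer and the trimers joined at both ends. The common trimer holds a pair of α1 chains and a single α2 chain, encoded by Col4a1 and Col4a2. Trimers of the α3, α4 and α5 chains are known from the kidney glomerulus, the lung and the inner ear, and trimers of α5 and α6 from smooth muscle and skin. Collagens XV and XVIII carry sugar side chains, sit at the face of the basement membrane towards the tissue, and release from their ends the fragments restin and endostatin. In the heart these proteins surround cardiomyocytes and capillaries, and fibroblasts are among the cells that make them.

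The collagen IV genes lie in 3 pairs, head to head on opposite strands. On GRCm38, in the GENCODE M21 annotation, Col4a1 (ENSMUSG00000031502) runs on the minus strand of chromosome 8 from 11198423 to 11312826, and Col4a2 (ENSMUSG00000031503) on the plus strand from 11312805 to 11449287. Their first bases are 21 bases apart, so that their first exons overlap. On chromosome 1, Col4a4 (ENSMUSG00000067158) runs on the minus strand from 82448423 to 82586849 and Col4a3 (ENSMUSG00000079465) on the plus strand from 82586921 to 82722059, with 72 bases between their starts. On the X chromosome, Col4a6 (ENSMUSG00000031273) runs on the minus strand from 141165403 to 141474076 and Col4a5 (ENSMUSG00000031274) on the plus strand from 141475385 to 141689234, with starts 1309 bases apart. The multiplexins are single genes. Col15a1 (ENSMUSG00000028339) is on the plus strand of chromosome 4 from 47208161 to 47313167, and Col18a1 (ENSMUSG00000001435) on the minus strand of chromosome 10 from 77052178 to 77166548.

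Promoter windows are shown for the shared start of Col4a1 and Col4a2 and for Col4a5, because these 3 genes were the most abundant members and the first pair fell unequally. Each window is from RefSeq on GRCm38.p6, runs 5′ to 3′ on the strand of its gene, and covers 250 bases before the start site and 50 bases from it. The capitals mark the letters CCAAT and GGGCGG, the CCAAT box and the GC box, on either strand, where the opposite strand reads ATTGG and CCGCCC. The Col4a1 window is chr8:11312777-11313076, minus strand, the Col4a2 window chr8:11312555-11312854, plus strand, and the Col4a5 window chrX:141475169-141475468, plus strand.
Col4a1: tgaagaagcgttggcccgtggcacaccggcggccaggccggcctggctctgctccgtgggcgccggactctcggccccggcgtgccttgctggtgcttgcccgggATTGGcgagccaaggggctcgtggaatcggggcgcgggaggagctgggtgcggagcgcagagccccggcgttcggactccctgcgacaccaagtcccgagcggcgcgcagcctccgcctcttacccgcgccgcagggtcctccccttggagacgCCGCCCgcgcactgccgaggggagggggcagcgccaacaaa
Col4a2: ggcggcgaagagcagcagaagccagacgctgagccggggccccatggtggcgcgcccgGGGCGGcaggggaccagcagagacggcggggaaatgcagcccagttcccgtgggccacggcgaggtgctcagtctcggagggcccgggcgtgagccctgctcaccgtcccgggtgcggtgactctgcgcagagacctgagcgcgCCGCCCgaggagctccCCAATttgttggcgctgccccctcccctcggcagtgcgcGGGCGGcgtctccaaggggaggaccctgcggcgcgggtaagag
Col4a5: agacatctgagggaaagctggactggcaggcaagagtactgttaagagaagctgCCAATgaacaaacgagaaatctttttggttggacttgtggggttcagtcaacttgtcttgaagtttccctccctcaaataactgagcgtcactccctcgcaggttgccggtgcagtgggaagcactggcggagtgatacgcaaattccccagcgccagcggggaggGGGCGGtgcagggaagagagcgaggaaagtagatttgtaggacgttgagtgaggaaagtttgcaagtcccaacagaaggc

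The Col4a1 and Col4a2 windows share 78 bases, and the GC box after the start of Col4a1 is the same one as that after the start of Col4a2. Col4a2 had 3 GC boxes and 1 CCAAT box, Col4a1 and Col4a5 1 of each. Of all 32851 promoter windows, 37.4% held the CCAAT letters and 35.7% the GC box letters. The letters TATAAA were in no window of the members, against 13.6% of all windows. An element bound by interferon regulatory factors, GAAANNGAAA on either strand, was likewise in none of the 8 windows found for 7 of the members, against 3.44% of all windows. At such shares, finding none in so few windows says little about the members. These windows say nothing of sites further away.

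All 8 basement membrane collagens fell in the libraries labelled OEIRF7. Each had an adjusted p under 0.05 in edgeR's quasi-likelihood test over the 13533 genes tested, of which 29.9% were lower and 29.0% higher by the same rule. In each of the 8, every OEIRF7 library was below every GFP library in log2 CPM, which held for 27.0% of all genes tested. The falls were modest. The median log2 fold change of the 8 was -0.38, against 0.00 for all genes tested and -0.41 for the genes that were lower, and none of the 8 passed 1 in size as 527 of the lower genes did. In cultures measured in bulk, fewer cells that make a transcript and less of it per cell cannot be told apart.

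**Figure D1:**
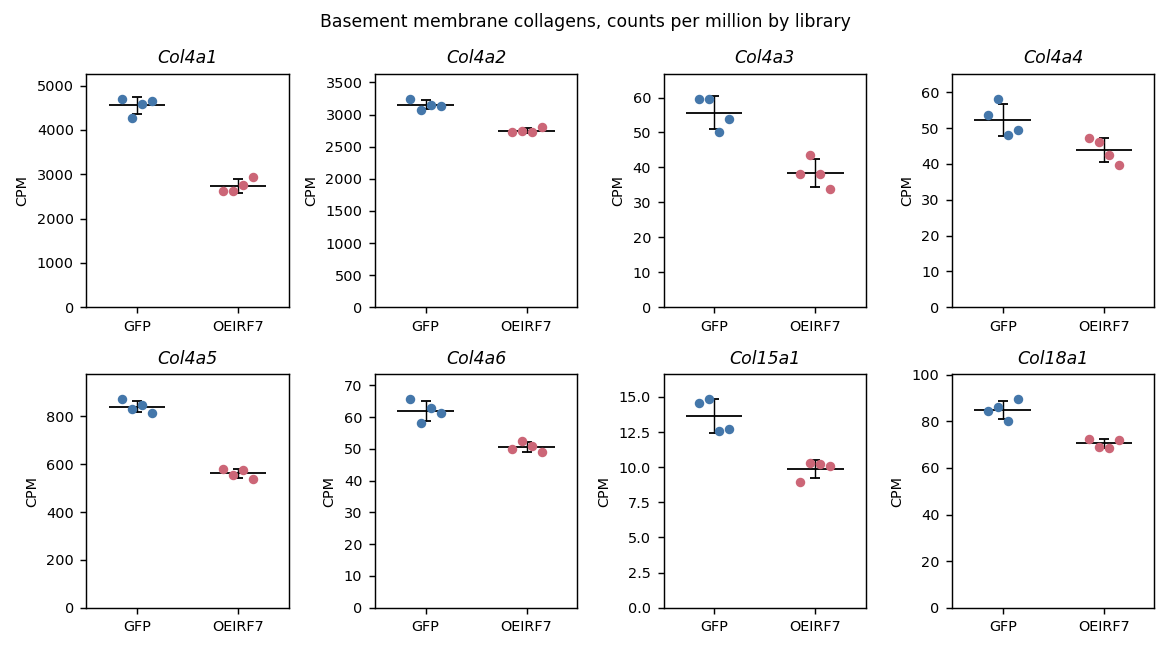
CPM (linear axes from 0) of each basement membrane collagen. Points are single libraries, horizontal lines the mean and bars 1 SD of 4 libraries per group. The GFP libraries lie above the OEIRF7 libraries in each panel, with the widest gap in Col4a1, from 4551 to 2735 CPM on average.

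Col4a1, the chain present as a pair in the common trimer, showed the largest fall. It had 4696, 4277, 4577 and 4655 CPM in GFP libraries 1 to 4 and 2621, 2615, 2765 and 2939 CPM in OEIRF7 libraries 1 to 4. The lowest GFP library was thus far above the highest OEIRF7 library. Col4a1 fell by 0.73 on the log2 scale (standard error 0.039, adjusted p = 8.2e-10 from edgeR). The exact permutation test, two-sided, gave p = 0.029 for this and each other member, which is its minimum with 4 libraries a group. The mean was 4551 ± 189 CPM with GFP and 2735 ± 153 CPM with OEIRF7 (SD, n = 4 each), 0.60 times the GFP level.

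Col4a2, its partner in the trimer, showed the smallest fall of the 8 in edgeR. In mean FPKM its change of -11.0% was close to that of Col18a1, at -10.8%. Col4a2 had 3242, 3076, 3151 and 3132 CPM with GFP and 2724, 2746, 2721 and 2809 CPM with OEIRF7. The groups lay close together but did not overlap, since replicates varied by only 2.18% (GFP) and 1.48% (OEIRF7) of their mean. Col4a2 fell by 0.20 on the log2 scale (standard error 0.024, adjusted p = 6.8e-06 from edgeR), to 0.87 times the GFP level. In each OEIRF7 library its count was close to that of Col4a1, which had been well above it in each GFP library.

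Col4a5, the chain shared by both rarer trimers, fell by 0.58 on the log2 scale (standard error 0.032, adjusted p = 1.5e-09 from edgeR). It had 871, 830, 849 and 814 CPM with GFP and 578, 555, 576 and 540 CPM with OEIRF7. Its fall to 0.67 times the GFP level was second to that of Col4a1 in edgeR on all libraries. Without OEIRF7 library 2, Col4a5 fell less than Col4a3, with log2 fold changes of -0.58 and -0.60. Col4a6, its neighbour on the X chromosome, fell by 0.29 (standard error 0.044, adjusted p = 5.0e-05 from edgeR). Its values were 65.6, 58.0, 62.8 and 61.3 CPM with GFP and 49.8, 52.5, 51.0 and 49.1 CPM with OEIRF7, with a gap between the groups that was narrower than the range within GFP.

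Col4a3 and Col4a4, the chains that join α5 in the glomerular trimer and that, like α5, are mutated in Alport syndrome, were low. Col4a3 had 59.6, 59.5, 50.1 and 53.7 CPM with GFP and 38.3, 43.5, 38.1 and 33.8 CPM with OEIRF7. It fell by 0.53 on the log2 scale (standard error 0.072, adjusted p = 1.6e-05 from edgeR). Col4a4 had 53.7, 58.1, 48.1 and 49.4 CPM with GFP and 47.2, 46.0, 42.6 and 39.7 CPM with OEIRF7. The highest OEIRF7 library of Col4a4 came within 1 CPM of the lowest GFP library. Col4a4 fell by 0.25 on the log2 scale (standard error 0.065) and had the largest adjusted p of the 8, at 0.0039 from edgeR. In the authors' FPKM its groups overlapped, and limma on log2(FPKM + 1) gave an adjusted p of 0.052.

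Of the multiplexins, Col18a1, the source of endostatin, had 84.3, 86.3, 80.2 and 89.4 CPM with GFP and 72.6, 69.0, 68.6 and 71.9 CPM with OEIRF7. It fell by 0.27 on the log2 scale (standard error 0.041, adjusted p = 4.7e-05 from edgeR). The groups did not overlap, but the gap between them was narrower than the range within GFP. On log2(FPKM + 1) and log2(FPKM + 0.1) limma gave log2 fold changes of -0.16 for Col18a1, past the threshold with an adjusted p of at most 0.010, and the cause of the smaller size was not tested. The gene has more than 1 start site, and counts per gene cannot tell its short and long forms apart. Slc19a1, a folate carrier gene, overlaps Col18a1 on the opposite strand. It had 102 to 116 counts with GFP and 119 to 146 with OEIRF7. The log2 fold change was 0.25, with a standard error of 0.11 and an adjusted p of 0.057 in edgeR, or 0.036 without scaling.

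Col15a1, which is known from the basement membranes of muscle and capillaries, was the lowest member. It had 14.6, 14.8, 12.6 and 12.7 CPM with GFP and 8.95, 10.3, 10.2 and 10.1 CPM with OEIRF7. Col15a1 fell by 0.47 on the log2 scale (standard error 0.082, adjusted p = 0.00019 from edgeR). On log2(FPKM + 1), a scale that understates changes of low genes, its log2 fold change was -0.30.

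**Figure D2:**
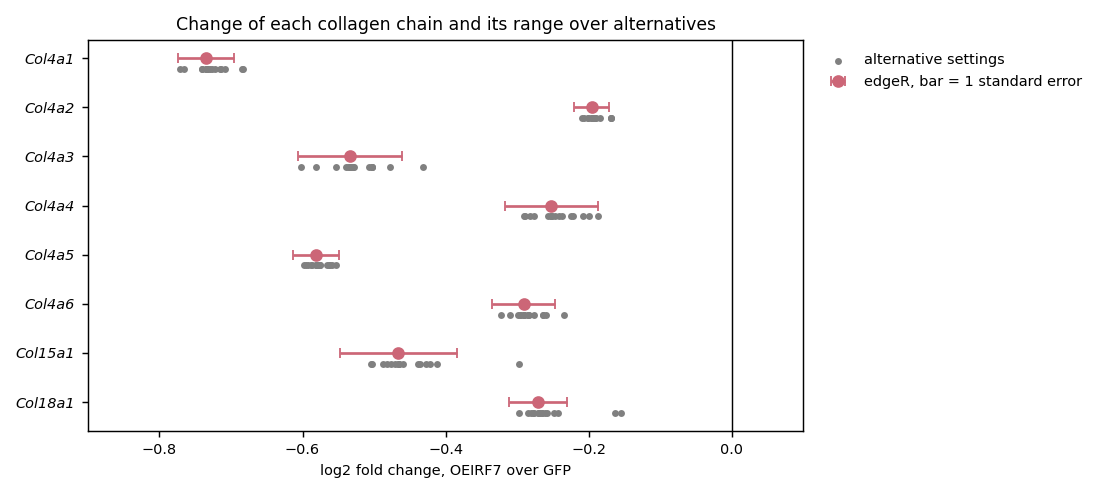
Log2 fold change of each basement membrane collagen, libraries labelled OEIRF7 over GFP. Red points are edgeR's estimates with bars of 1 standard error, and grey points below them the 16 alternative settings. Every point lies below 0, from -0.77 for Col4a1 to -0.16 for Col18a1 at the extremes.

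In each head-to-head pair, one gene fell more than its neighbour, and the odd-numbered chain was the one that fell more. The ratio of the counts of 2 chains within a library, which no scaling of the library can move, was compared for the 3 pairs and for the multiplexins. The log2 ratio of Col4a1 to Col4a2 was 0.53 ± 0.040 with GFP and -0.01 ± 0.065 with OEIRF7 (SD, n = 4 per group). Its difference of -0.54 (standard error 0.038) was far outside the spread of the replicates (exact two-sided permutation test, p = 0.029; 0.038 adjusted over the 4 ratios). The ratio of Col4a3 to Col4a4 differed by -0.28 (standard error 0.055) and that of Col4a5 to Col4a6 by -0.29 (standard error 0.038), with the same p for each in the exact permutation test and no overlap between groups. Without GFP library 1 the difference for Col4a3 and Col4a4 was -0.27 (exact permutation test, p = 0.057).

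The ratio of Col15a1 to Col18a1 differed by -0.19 (standard error 0.093), and the groups overlapped (exact two-sided permutation test, p = 0.11). The same difference was past the threshold on FPKM, at -0.26, and without GFP library 4, at -0.25 (exact permutation test, p = 0.029 for each). A difference between the changes of the multiplexins was therefore not settled by these libraries.

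**Figure D3:**
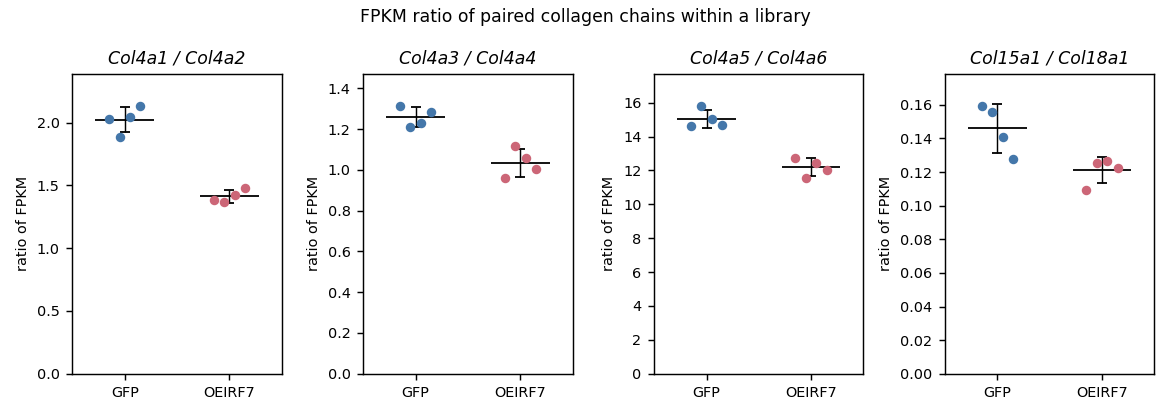
Ratio of the FPKM of paired chains within each library (linear axes from 0). Points are libraries, lines the mean and bars 1 SD of 4 libraries per group. The ratio of Col4a1 to Col4a2 lies between 1.89 and 2.13 in the GFP libraries and between 1.37 and 1.48 in the OEIRF7 libraries, and the ratio of Col15a1 to Col18a1 stands apart least.

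Levels of different genes can be compared per length, in the deposited FPKM (fragments scaled to transcript length and to the mapped total). In both groups the order was Col4a1, Col4a2, Col4a5, Col18a1, Col4a6, Col4a3, Col4a4 and Col15a1. Neighbours in this order did not overlap, with the exception of Col4a3 and Col4a4 in the OEIRF7 libraries, where the lowest Col4a3 value was 3.98 FPKM and the highest Col4a4 value 4.73 FPKM. Col4a1 had 979 ± 59.2 FPKM with GFP and 609 ± 29.1 FPKM with OEIRF7 (SD, n = 4 per group). It ranked between 31 and 42 among all genes in the GFP libraries and between 62 and 73 in the OEIRF7 libraries. Col4a2 had 484 ± 10.1 and 430 ± 6.93 FPKM (SD, n = 4 per group). The FPKM of Col4a1 was 2.02 ± 0.102 times that of Col4a2 with GFP and 1.41 ± 0.0524 times with OEIRF7 (SD, n = 4 per group). The size of this ratio depends on the transcript lengths used for FPKM, which were not checked. The longest coding transcripts of Col4a1 and Col4a2 have similar lengths, 6615 and 6450 bases. The log2 ratio of their counts was only 0.53 with GFP and -0.01 with OEIRF7. The FPKM ratio should therefore not be read as a ratio of molecules.

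Together the 6 collagen IV chains summed to 1621 ± 67.1 FPKM with GFP and 1149 ± 31.0 FPKM with OEIRF7 (SD, n = 4 per group), 0.71 times the GFP level. Col4a1 made up 60.3 ± 1.31% of that sum with GFP and 52.9 ± 1.10% with OEIRF7. The share of Col4a2 went the other way, from 29.9 ± 0.875% to 37.5 ± 0.625%, with no overlap between groups. Col4a5 held 8.54 ± 0.370% and 8.16 ± 0.470%, with overlapping groups. The other 3 chains stayed under 1% each. Of the fall in the summed FPKM of all 8 members, Col4a1 carried 77.9%, Col4a2 11.2% and Col4a5 9.43%. These shares rest on FPKM and change with the transcript lengths used for it.

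**Figure D4:**
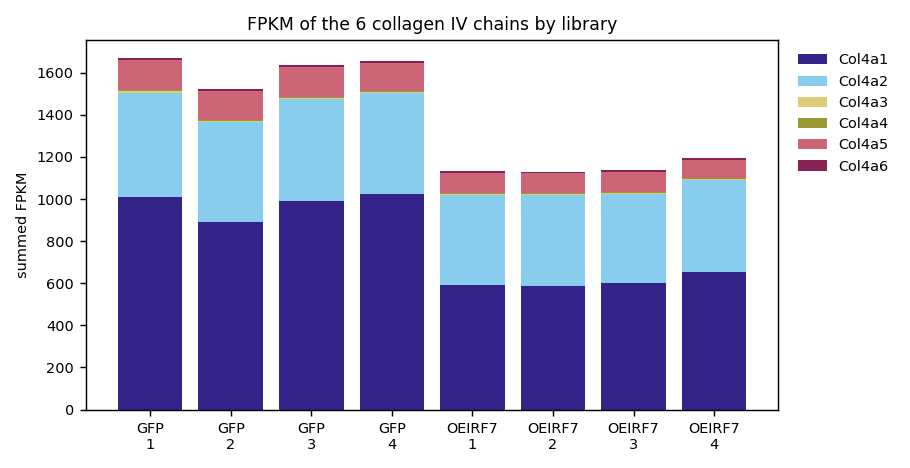
FPKM of the 6 collagen IV chains, stacked for each library (linear axis from 0). The GFP libraries reach between 1523 and 1670 and the OEIRF7 libraries between 1130 and 1195, and the dark Col4a1 segment shrinks most.

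The rest of the basement membrane was read from 6 lists that hold 68 genes, of which 63 were tested. Of these, 24 (38.1%) were lower and 28 (44.4%) higher in the libraries labelled OEIRF7 and 11 did not pass the test. Over all genes tested, 29.9% were lower and 29.0% higher. No list besides the basement membrane collagens had all of its tested genes called in the same direction.

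Laminins, the cross-shaped trimers that bind cells to the sheet, were mixed, with 3 chains lower, 5 higher and 2 not past the test of 10 tested (median log2 fold change 0.08). The most abundant, Lamc1, the γ1 chain of most laminins, fell by 0.44 (log2), with 1117 ± 11.7 CPM in GFP and 822 ± 33.2 CPM in OEIRF7 libraries (SD, n = 4 each). Lamb3 and Lama3, chains of the epithelial laminin 332, rose by 1.65 and 1.24 on the log2 scale but stayed at 5.59 and 2.91 CPM in the OEIRF7 libraries. Lama1, the α chain of the embryonic laminin, fell by 1.09 (log2) and had 1.58 CPM with GFP and 0.74 CPM with OEIRF7.

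Among the nidogens, proteoglycans and other components, 5 were lower and 3 higher of 10 tested (median log2 fold change -0.09). Nid1, which links the laminin and collagen IV networks, rose by 0.31 (standard error 0.029, adjusted p = 2.7e-07 from edgeR), while Hspg2, which encodes perlecan, fell by 0.11. Hspg2 had an adjusted p of 0.060 and 0.059 in limma on log2(FPKM + 0.1) and log2(FPKM + 1). Fbln2, the most abundant of the list at 6519 CPM with GFP, did not pass the test, with a log2 fold change of 0.02.

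Of the 13 tested genes that modify, fold, export or crosslink collagen chains, 4 were lower and 7 higher (median log2 fold change 0.19). Serpinh1, the chaperone HSP47 of all collagens, fell by 0.40, and Pxdn, the peroxidase that makes the sulfilimine bond between collagen IV trimers, fell by 0.37 on the log2 scale. Plod1, a lysyl hydroxylase, rose by 0.50, P4ha2, a chain of prolyl 4-hydroxylase, by 0.34 and Colgalt1, which adds galactose to hydroxylysine, by 0.30 on the log2 scale. Loxl2, a lysyl oxidase that crosslinks collagen IV and the most abundant of this list, fell by 0.22, with 1841 ± 44.5 CPM in GFP and 1581 ± 45.6 CPM in OEIRF7 libraries (SD, n = 4 each). The names Nid1, Hspg2, Serpinh1, Pxdn, Plod1, P4ha2 and Colgalt1 were chosen after their values were seen.

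Among receptors of collagen IV and laminin, 5 were lower and 4 higher of 10 tested (median log2 fold change -0.25). Ddr1 and Ddr2, named after their values were seen, had 219 and 452 CPM with GFP and fell by 0.71 and 0.25 on the log2 scale. The integrin chains Itga1 and Itga2 moved apart. Itga1, which encodes the integrin chain that prefers collagen IV, fell by 1.28 (log2), with 54.3 ± 3.99 CPM in GFP and 22.4 ± 3.23 CPM in OEIRF7 libraries (SD, n = 4 each). Itga2, whose integrin prefers fibrillar collagen, rose by 2.75 (log2), with 7.88 ± 1.17 CPM in GFP and 53.0 ± 7.63 CPM in OEIRF7 libraries (SD, n = 4 each). The laminin receptor chain Itga3 fell by 1.07, and Itgb1, their common β chain, rose by 0.19 on the log2 scale.

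Of the proteases that can cut basement membrane collagens and their inhibitors, 2 were lower and 8 higher of 13 tested (median log2 fold change 0.24). Mmp9, the gelatinase B that degrades collagen IV, rose by 5.88 on the log2 scale, to 11.2 ± 2.19 CPM (SD, n = 4). It had between 2 and 10 counts in the GFP libraries, so that the size of the fold change is imprecise. Mmp10 and Mmp3, stromelysins, rose by 2.90 and 1.04, and Mmp12, the macrophage elastase, by 1.82 on the log2 scale. Mmp2, named after its values were seen, was lower, at 366 CPM with GFP and 343 CPM with OEIRF7. Its log2 fold change was -0.096 (adjusted p = 0.022 from edgeR). Timp3, an inhibitor bound to the matrix and the most abundant of the list, fell by 0.35 on the log2 scale. Of the other inhibitors, both named after their values were seen, Timp1 rose by 0.53 on the log2 scale and Timp2 did not pass the test, with a log2 fold change of -0.01. Mmp7 and Elane had no count in any library.

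The fibrillar collagens, which form the fibres of the interstitium, were lower in 5, higher in 1 and not past the test in 1 of 7 (median log2 fold change -0.51). Col5a2 was the most abundant and fell by 0.51 on the log2 scale, and Col5a3 rose by 1.71. The log2 fold changes of the fibrillar chains that were lower lay between -0.73 in Col11a1 and -0.16 in Col1a1, both named after their values were seen, a range close to that of the 8 members.

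**Figure D5:**
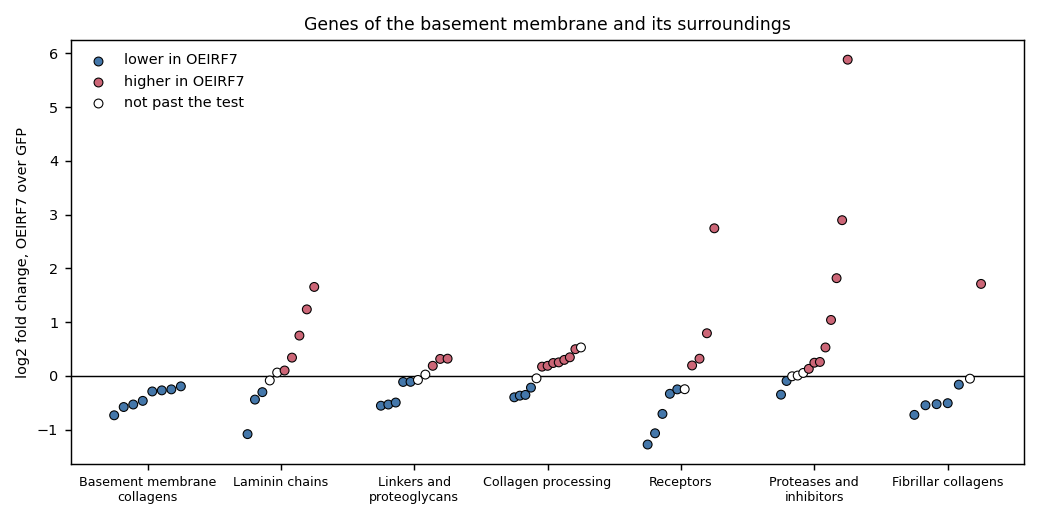
Log2 fold change of each tested gene in the basement membrane collagens and in the 6 surrounding lists, libraries labelled OEIRF7 over GFP. Blue points were lower, red points higher and white points not past edgeR's test. The 8 basement membrane collagens are all blue, from -0.73 to -0.20, and the other lists hold both colours.

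Endothelial and mural cells are known to make much collagen IV, and their markers were present at low levels. The 8 endothelial markers, led by Cdh5, summed to between 229 and 241 CPM with GFP and between 233 and 260 CPM with OEIRF7, and of these genes 1 was lower and 3 higher. Of the 7 mural markers 5 were tested, with 2 lower and 2 higher and a sum of 122 to 133 CPM with GFP and 105 to 127 CPM with OEIRF7. The epicardial markers summed to between 148 and 157 CPM with GFP and between 95.3 and 110 CPM with OEIRF7. They were mixed, with 3 lower and 2 higher of 6 tested. The macrophage markers summed to between 265 and 315 CPM and between 337 and 372 CPM, with 0 lower and 4 higher of 7 tested. The Schwann cell markers summed to between 32.3 and 37.7 CPM and between 27.6 and 32.1 CPM, with 1 lower and 0 higher of 4 tested. The part of such cells, or of the fibroblast markers given above, in the fall of the collagens was not tested.

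Genes with the pattern most like that of a member were sought among 10320 genes with a mean above 5 CPM, by Pearson's correlation of log2 CPM over the 8 libraries, which reflects mostly the difference between the groups. For Col4a1 these were Rassf3, Tns1 and Ergic1 (r = 0.998 for each), and for Col4a5 Usp8, Hbp1 and Kif3b (r = 0.998 for each). The closest genes were Specc1 for Col4a2 (r = 0.994), Acbd5 for Col4a3 (r = 0.987), Isy1 for Col4a4 (r = 0.989), Setd5 for Col4a6 (r = 0.992), Hmgxb4 for Col15a1 (r = 0.988) and Ncald for Col18a1 (r = 0.991). Over the deviations from the group means, which leave that difference out, the closest were Map1a for Col4a1 (r = 0.992), Tek for Col4a2 (r = 0.988), mt-Nd6 for Col4a4 (r = 0.996) and Ormdl3 for Col4a5 (r = 0.986). They were Dnajc1 for Col4a3 (r = 0.978), Pak1ip1 for Col4a6 (r = 0.978), Prkab1 for Col15a1 (r = 0.958) and Gins2 for Col18a1 (r = 0.968). These genes are the highest of 10320 over only 8 libraries. How high such a correlation would be by chance was not tested for either measure, so no link to these genes is drawn.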

How the data were processed

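RNA-seq of 8 libraries was analysed. Per the paper's methods, the authors built stranded poly(A) libraries, trimmed reads with Trimmomatic, mapped them to GRCm38 with HISAT2 and deposited raw read counts per gene from HTSeq-count and FPKM from Cufflinks, normalized for length and depth and rounded to 2 decimals. The labels name other extraction and library kits. Tool versions and the strand setting of the counting are not given in the sources used here, so antisense overlaps are uncertain. The authors' deposited group means of FPKM, log2 fold changes and p-values or FDR from their own comparison were not used.

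The letters GFP stood in 121 symbols, which were restored by Ensembl identifier. Counts were filtered with filterByExpr, TMM-scaled (factors 0.989 to 1.01) and compared with edgeR 4.0.16 in R 4.3.3 (glmQLFit, glmQLFTest, no covariates, Benjamini-Hochberg adjustment over 13533 genes). Standard errors are the log2 fold change divided by the square root of F. Chain ratios used counts plus 0.5 and exact permutation tests. Replicates of a group differed by more than sampling noise (the chi-square statistic was 2.69 to 8.67 times its degrees of freedom). On simulated counts with 200 genes changed 2-fold and the same noise for every gene, edgeR recovered 96% of them. Of its calls there, 1.54% were false. Smaller changes, such as those of the members, were not simulated.

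The members and lists were chosen with earlier results of these data known. Named from each list were genes called with a log2 fold change past 1, at most the 4 largest, and the gene of highest mean CPM. Other names are marked. Col4a3 was not found in the promoter table. Same-numbered libraries of the groups had correlated deviations between 0.027 and 0.35, with 2 of 4 over 0.1. Of the 4 GFP libraries, 3 correlated best with their own number, so a pairing is possible. The labels state none, and the numbers were used only as a block among the alternatives. Alternatives were DESeq2 1.42.0, other scalings and filters, limma 3.58.1 on log2 FPKM, a replicate block and leaving out each library. Of the genes of similar pattern, 3 are given for Col4a1 and Col4a5 and the closest for the other members; some are not reported here.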

Additional observations from a re-analysis of the deposited data

Results flagged for a closer look

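Col15a1 in OEIRF7 library 1 stood apart from its group, at 8.95 CPM beside 10.1, 10.2 and 10.3 CPM in the other OEIRF7 libraries. The gap was 0.845 of the range of the group, over the 95% limit of Dixon's test for 4 samples. Chance flags about 1 in 20 groups, and 24 groups of 4 were examined. The library lies on the low side, and the log2 fold change of Col15a1 kept its call without it.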

How the results depend on the processing

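All 8 members had a negative log2 fold change under each of the 16 alternatives, and of their 128 values 127 kept their side of the threshold. The exception was Col4a4 in limma on log2(FPKM + 1), with -0.19 (adjusted p = 0.052). Leaving out 1 library at a time, log2 fold changes lay between -0.77 and -0.71 for Col4a1, -0.21 and -0.18 for Col4a2, -0.60 and -0.48 for Col4a3, and -0.29 and -0.20 for Col4a4. The ratio of Col4a1 to Col4a2 then differed by -0.56 to -0.52, that of Col4a3 to Col4a4 by -0.32 to -0.25 (exact permutation p from 0.029 to 0.057), that of Col4a5 to Col4a6 by -0.31 to -0.27, and that of Col15a1 to Col18a1 by -0.25 to -0.13 (exact permutation p from 0.029 to 0.26). On FPKM the last was -0.26 (exact permutation p = 0.029). With the replicate number as a block, the ratio differences were -0.54, -0.28 and -0.29 for the 3 collagen IV pairs, with p = 0.125 in the exact sign-flip permutation test, the smallest that 4 pairs allow. The block in edgeR kept all 8 members lower (a count of 8) and moved no count by more than 1.5 times, and 3 of 4 GFP libraries correlated best with their own number. The 6 lists had 20 to 26 genes lower and 25 to 28 higher over all alternatives. Fbln2, which was not past the test, had a log2 fold change of -0.0094 without OEIRF7 library 4 and up to 0.044 without another library. Lama1 had -0.11 in limma on log2(FPKM + 1), no longer past the threshold. On that scale Lama3, Lamb3 and Mmp9 kept their calls with smaller sizes of 0.31, 0.78 and 2.10. Of the listed proteases, 1 in place of 2 was lower without OEIRF7 library 3, without scaling and on FPKM, and of the linkers 3 in place of 5 on log2(FPKM + 1). The depth left Col15a1, Lama1, Lama3, Lamb3 and Mmp9 on few counts, and intervals cover the spread of these libraries only.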
